A study of Mus musculus with 18 samples.

Results

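A set of 41 imprinted genes was followed in mouse hippocampus, in Arid1a conditional knockout (cKO) animals and in wild-type (WT) animals. The genes were taken by symbol from the 55385 genes of the deposited tables, covered 16 imprinted domains and included the Dlk1-Dio3 domain of chromosome 12. All 41 symbols were found at both ages. Arid1a codes for a DNA-binding subunit of BAF, a SWI/SNF complex that moves nucleosomes. The mice were C57BL/6, and the groups were cKO and WT hippocampus at embryonic day 16.5 (E16.5, 3 RNA libraries each) and at postnatal day 21 (P21, 2 RNA libraries each). At 3 weeks, 1 ChIP-seq library per genotype was made for each of H3K27me3, the mark of Polycomb repression, H3K4me3, found at active promoters, and H3K27ac, found at active promoters and enhancers. The series design calls the RNA replicates biological and states none for ChIP-seq. Which cells had lost Arid1a, which Cre line was used and which part of the gene was removed are facts that the labels do not state.

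Imprinted genes are expressed mainly from the maternal or the paternal copy, according to DNA methylation set in the germ line. They lie in clusters, each under an imprinting control region, that usually mix protein-coding genes with long noncoding RNAs and with genes of opposite parental expression. Many act on growth, on neural progenitors or on hypothalamic functions, and some are imprinted in only a few tissues. The counts do not separate the parental copies, so every level given here is a sum over both. In bulk tissue, fewer cells of a type and less RNA per cell cannot be told apart.

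RNA levels are given as CPM, estimated counts scaled to library size by TMM within each age. Each change is a log2 ratio of cKO to WT, followed by ± its approximate standard error (SE). The P21 libraries held between 20089631 and 20332148 estimated counts, and those of E16.5 between 17662335 and 19760764. Arid1a itself had 109.9 and 89.2 CPM in cKO libraries, against 215 and 205 CPM in WT libraries at P21 (log2 change -1.08 ± 0.13, adjusted p = 0.00507). At E16.5 it had 180.0, 175 and 176 CPM in cKO libraries, against 262, 282 and 285 CPM in WT libraries (log2 change -0.64 ± 0.06, adjusted p = 0.032). All 12 markers of a hippocampal list were detected in each of the 10 RNA libraries, with C1ql2 at only 0.564 to 1.2 CPM at E16.5. The E16.5 libraries of each genotype differed in markers of the tissue around the hippocampus. Summed over 9 choroid plexus markers, they held 2.92, 40.7 and 2558 CPM in cKO libraries, against 4930.2, 3307 and 28 CPM in WT libraries. Over 8 markers of meningeal fibroblasts, they held 11.2, 23.8 and 81.5 CPM in cKO libraries, against 1214, 134 and 233 CPM in WT libraries. WT replicate 1 was thus the highest library for both lists.

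The promoters of Dlk1, Meg3 and Dio3 are shown because RNA and chromatin of this domain are followed below, and each of these windows carries a histone mark peak in cKO. Those of Plagl1, Ndn and Magel2 are shown because these genes rose at P21 and each has a histone mark peak on the window printed. Each runs 5′ to 3′ from 250 bases before the RefSeq start to 50 bases after it (GRCm38.p6), with every CpG, the dinucleotide that DNA methylation acts on, in capitals.
Dlk1, chr12:109452573-109452872, + strand: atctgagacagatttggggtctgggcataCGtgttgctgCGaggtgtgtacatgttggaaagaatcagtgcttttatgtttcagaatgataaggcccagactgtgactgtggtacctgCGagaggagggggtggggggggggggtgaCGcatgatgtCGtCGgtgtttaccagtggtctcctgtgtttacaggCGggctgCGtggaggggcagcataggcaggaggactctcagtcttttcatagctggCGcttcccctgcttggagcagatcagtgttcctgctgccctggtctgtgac
Meg3, chr12:109540746-109541045, + strand: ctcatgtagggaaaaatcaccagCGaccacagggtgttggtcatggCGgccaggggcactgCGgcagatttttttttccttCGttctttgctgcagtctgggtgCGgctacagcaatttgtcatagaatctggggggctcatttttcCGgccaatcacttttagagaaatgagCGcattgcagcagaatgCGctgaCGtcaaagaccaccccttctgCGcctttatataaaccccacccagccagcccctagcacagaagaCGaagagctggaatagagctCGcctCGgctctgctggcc
Dio3, chr12:110278980-110279279, + strand: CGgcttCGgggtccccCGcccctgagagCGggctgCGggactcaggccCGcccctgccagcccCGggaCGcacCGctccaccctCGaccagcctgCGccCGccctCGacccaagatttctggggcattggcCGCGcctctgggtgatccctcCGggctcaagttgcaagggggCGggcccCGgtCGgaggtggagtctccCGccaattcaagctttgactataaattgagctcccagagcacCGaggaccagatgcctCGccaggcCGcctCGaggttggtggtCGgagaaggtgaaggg
Plagl1, chr10:13090582-13090881, + strand: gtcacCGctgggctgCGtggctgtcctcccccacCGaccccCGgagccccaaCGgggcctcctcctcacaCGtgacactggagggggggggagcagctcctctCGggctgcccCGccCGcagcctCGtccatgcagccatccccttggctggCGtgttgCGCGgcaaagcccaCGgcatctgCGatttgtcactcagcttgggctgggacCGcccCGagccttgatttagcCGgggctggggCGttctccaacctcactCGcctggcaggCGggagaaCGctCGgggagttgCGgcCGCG
Ndn, chr7:62348027-62348326, + strand: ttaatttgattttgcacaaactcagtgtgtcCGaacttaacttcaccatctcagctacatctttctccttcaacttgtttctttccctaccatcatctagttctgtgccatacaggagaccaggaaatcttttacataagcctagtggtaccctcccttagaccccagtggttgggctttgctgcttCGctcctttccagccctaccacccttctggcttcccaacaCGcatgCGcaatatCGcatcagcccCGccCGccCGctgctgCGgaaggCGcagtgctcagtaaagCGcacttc
Magel2, chr7:62376729-62377028, + strand: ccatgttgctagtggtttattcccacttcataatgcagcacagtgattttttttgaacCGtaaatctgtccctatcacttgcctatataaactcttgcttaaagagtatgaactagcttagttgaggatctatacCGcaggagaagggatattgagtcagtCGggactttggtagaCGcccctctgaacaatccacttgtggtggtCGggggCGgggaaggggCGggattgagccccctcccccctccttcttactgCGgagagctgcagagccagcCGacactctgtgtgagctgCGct

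The Dlk1 window held 9 CpGs, Meg3 13, Dio3 25, Plagl1 26, Ndn 11 and Magel2 10. Promoter entries were found for 33 of the 41 genes, giving 50 windows with a median of 13.5 CpGs, against a median of 7 over 32851 windows of 27025 genes. The hexamer TGCCGC, which the imprint-maintaining zinc finger protein ZFP57 binds when methylated, was searched on both strands. It lay in 14 of the 50 windows (28.0%), the Meg3 and Plagl1 windows among them, against 11.6% of all windows. The windows with it are not all distinct, since Snrpn and Snurf share one and Mest windows with it nearly coincide. The hexamer holds a CpG, and the shares were not matched for the number of CpGs.

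At P21 each gene of the set that passed the test was higher in cKO hippocampus. Of 39 genes tested, 9 rose and 0 fell at an edgeR adjusted p below 0.05, against 2.81% of all 17407 tested genes that rose and 3.91% that fell. At an unadjusted p below 0.05, 15 were higher and 0 lower, against 11.7% and 13.2% of all tested genes. The 9 were Dlk1, Rtl1, Ndn, Magel2, Snrpn, Asb4, Ddc, Plagl1 and Nap1l5. The median log2 change over the 39 was 0.25, against 0.01 over all tested genes, and 31 of the 39 changes were positive. In 23 genes both cKO libraries lay above both WT libraries (28.1% of all tested genes) and in 4 both lay below (28.0%). Phlda2 and Calcr were too low to test. By the parental copy each gene is known to use, 7 of 21 tested paternally expressed genes rose, as did 1 of 12 maternally expressed genes and 1 of 6 genes whose imprinting depends on the tissue.

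**Figure D1:**
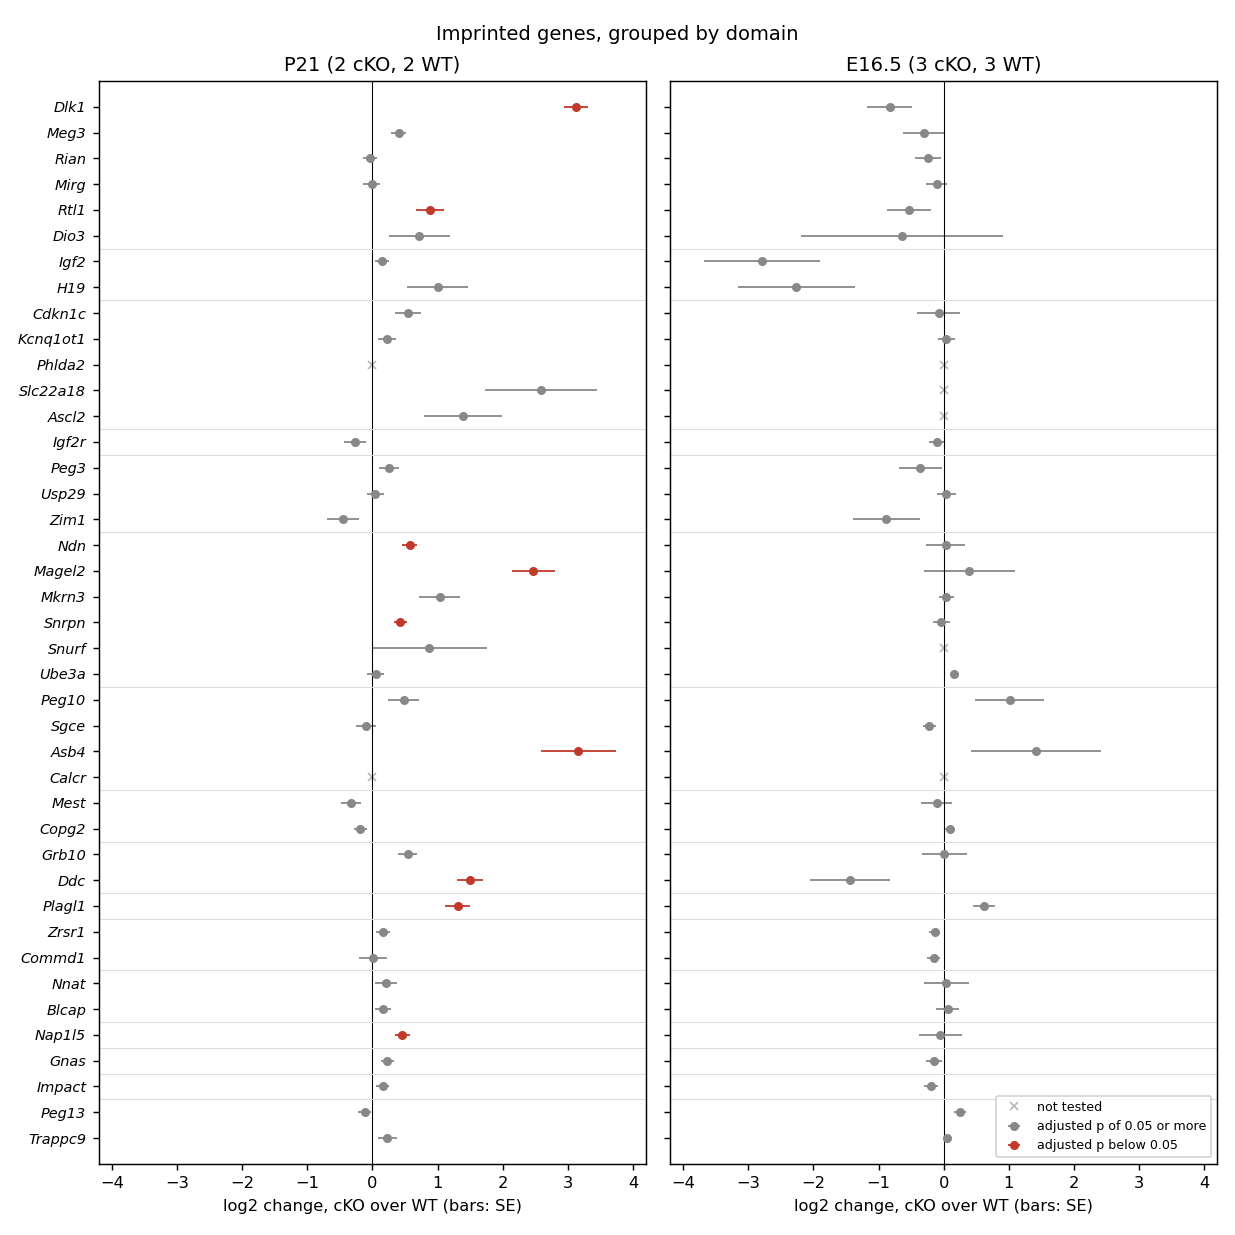
Log2 change, cKO over WT, with its SE for each of the 41 imprinted genes, grouped by domain, at P21 (left, 2 libraries per genotype) and E16.5 (right, 3 libraries per genotype). Red marks the 9 genes with an adjusted p below 0.05, all at P21 and all to the right of 0. Crosses at 0 mark genes not tested and carry no value.

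In the Dlk1-Dio3 domain the paternally expressed protein-coding genes moved most. Dlk1, a membrane protein with EGF repeats related to Notch ligands, had 49.5 and 38.8 CPM in cKO libraries, against 5.56 and 4.61 CPM in WT libraries. Both cKO libraries stood far above both WT libraries, and Dlk1 rose 8.67-fold (log2 change 3.12 ± 0.18, adjusted p = 0.00049). The counts behind this were 1026 and 774 counts in cKO libraries, against 111 and 92 counts in WT libraries. Rtl1, a retrotransposon-derived gene needed in the placenta, had 8.19 and 7.71 CPM in cKO libraries, against 3.92 and 4.76 CPM in WT libraries. It rose without overlap between the groups (log2 change 0.88 ± 0.21, adjusted p = 0.0481). Its annotated span overlaps Meg3 and Rian, and no source used here says whether strand entered the counting, so reads of Rtl1 and of these neighbours may not be separated. Dio3, the deiodinase that inactivates thyroid hormone, had 0.771 and 1.304 CPM in cKO libraries, against 0.751 and 0.501 CPM in WT libraries. The groups did not overlap, but the counts were low and the difference did not pass (log2 change 0.72 ± 0.47, adjusted p = 0.389).

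The maternally expressed noncoding RNAs of the domain differed among themselves. Meg3, the long noncoding RNA at the start of the maternal transcripts, had 4264 and 4002 CPM in cKO libraries, against 3014 and 3242 CPM in WT libraries. Both cKO libraries were higher, and the difference missed the threshold (log2 change 0.40 ± 0.11, adjusted p = 0.0695). In the authors' deposited table Meg3 was among 9 of the 41 genes that were higher with an adjusted p below 0.05. Rian, host of many C/D snoRNAs, had 595 and 669 CPM in cKO libraries, against 631 and 671 CPM in WT libraries. Mirg, host of a microRNA cluster, had 21.8 and 24.6 CPM in cKO libraries, against 23.7 and 23.1 CPM in WT libraries. In both genes the groups overlapped, and no difference was detected (Rian -0.04 ± 0.11, Mirg -0.01 ± 0.13). Within 1 domain, then, Dlk1 and Rtl1 passed the test upward while Rian and Mirg had log2 changes near 0. The Rtl1 call lay close to the threshold. DESeq2 did not make it (adjusted p = 0.0832), and Rtl1 was not among the 9 genes of the authors' table, whereas Dlk1 was. Whether the changes of these genes differ from each other was not tested.

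In the Snrpn-Ube3a domain, the region lost in Prader-Willi and Angelman syndromes, 3 of 6 genes rose. Magel2, a MAGE family gene known for its roles in the hypothalamus, had 7.76 and 5.32 CPM in cKO libraries, against 1.45 and 0.903 CPM in WT libraries. The cKO libraries were several times higher, without overlap (log2 change 2.47 ± 0.33, adjusted p = 0.00822). Ndn, a MAGE family protein of postmitotic neurons, had 184 and 209 CPM in cKO libraries, against 139 and 127 CPM in WT libraries (log2 change 0.57 ± 0.11, adjusted p = 0.0287). Snrpn, the neuronal spliceosomal protein SmN, had 1088 and 1160.1 CPM in cKO libraries, against 827 and 836 CPM in WT libraries (log2 change 0.43 ± 0.10, adjusted p = 0.049). For Ndn and Snrpn the groups also stood apart, by smaller steps. Snurf, which shares its transcript with Snrpn, had 6.77 and 7.61 CPM in cKO libraries, against 1.17 and 6.698 CPM in WT libraries, so the WT replicates disagreed and how reads were split between the pair is uncertain. Mkrn3, a ring finger protein known as a brake on puberty, had 2.51 and 3.26 CPM in cKO libraries, against 1.402 and 1.404 CPM in WT libraries and missed the threshold (log2 change 1.03 ± 0.31, adjusted p = 0.0884). Ube3a, the ubiquitin ligase that neurons express from the maternal copy, had 119.5 and 97.4 CPM in cKO libraries, against 98.8 and 111 CPM in WT libraries, with overlapping groups (0.05 ± 0.13).

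Plagl1 (Zac1), a zinc finger transcription factor that regulates other imprinted genes, had 51.6 and 35.5 CPM in cKO libraries, against 16.3 and 18.8 CPM in WT libraries. It rose 2.49-fold without overlap (log2 change 1.31 ± 0.19, adjusted p = 0.0124). Ddc, the decarboxylase that makes dopamine and serotonin and neighbour of Grb10, had 13.4 and 16.6 CPM in cKO libraries, against 5.96 and 4.71 CPM in WT libraries. It rose 2.803-fold (log2 change 1.49 ± 0.20, adjusted p = 0.00802). Grb10, an adaptor that damps growth factor signalling and is paternally expressed in neurons, had 45.1 and 36.5 CPM in cKO libraries, against 25.7 and 30.3 CPM in WT libraries. The cKO libraries were higher, and the difference missed the threshold (log2 change 0.54 ± 0.15, adjusted p = 0.0689). Nap1l5, a nucleosome assembly protein-like gene inside an intron of Herc3, had 234 and 243 CPM in cKO libraries, against 165 and 182 CPM in WT libraries and rose by a smaller step (log2 change 0.46 ± 0.11, adjusted p = 0.0435). Asb4, an ankyrin repeat protein of the Peg10-Sgce domain and the only maternally expressed gene among the 9, rose from few reads. Its libraries held 36 and 21 counts in cKO libraries, against 4 and 2 counts in WT libraries (log2 change 3.16 ± 0.57, adjusted p = 0.0216).

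**Figure D2:**
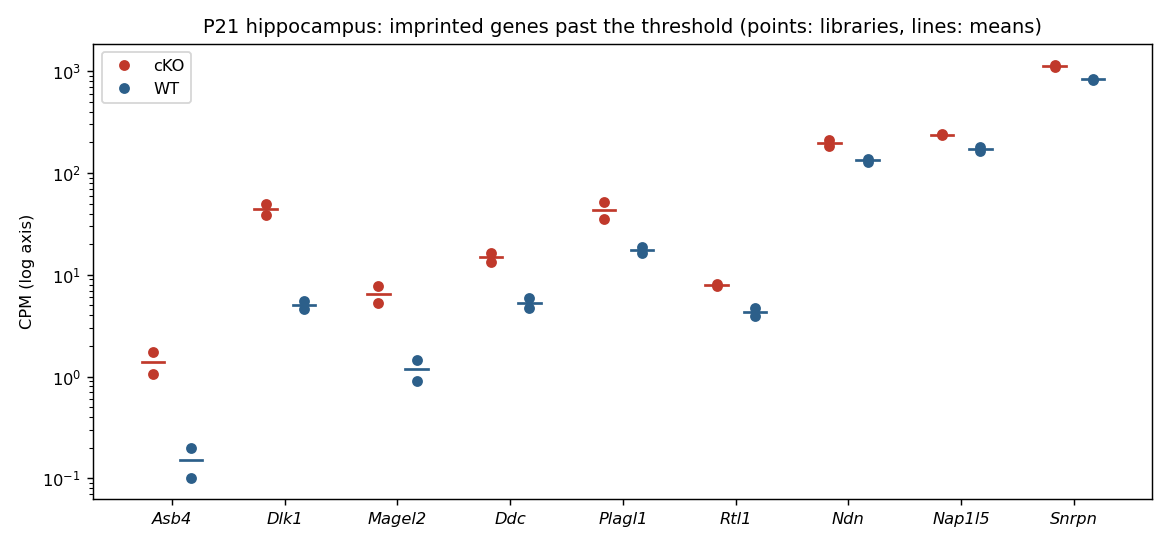
CPM in each P21 library (log axis) for the 9 imprinted genes past the threshold, with cKO in red at the left of WT in blue for each gene. Points are libraries and lines are means of 2 libraries. In each of the 9 genes both cKO points lie above both WT points.

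The remaining domains had no gene past the threshold at P21. Igf2, the fetal growth factor, had 157 and 139.7 CPM in cKO libraries, against 136 and 132 CPM in WT libraries. H19, its maternally expressed noncoding neighbour, had 1.06 and 1.35 CPM in cKO libraries, against 0.407 and 0.802 CPM in WT libraries. Both were higher in cKO libraries without overlap, with log2 changes of 0.15 ± 0.11 for Igf2 and 1.0 ± 0.47 for H19. Cdkn1c, the cell cycle inhibitor of the Kcnq1 domain, had 10.9 and 9.18 CPM in cKO libraries, against 6.01 and 7.67 CPM in WT libraries (log2 change 0.55 ± 0.20, adjusted p = 0.143). Its neighbour Slc22a18, a membrane transporter, had 0.868 and 1.003 CPM in cKO libraries, against 0.3005 and 0 CPM in WT libraries, from at most 20 counts in a library. Ascl2, a trophoblast transcription factor, had 0.5302 and 0.802 CPM in cKO libraries, against 0.351 and 0.1504 CPM in WT libraries. All 3 were higher in both cKO libraries and none passed. Kcnq1ot1, the noncoding RNA that silences this domain on the paternal copy, had 59.3 and 50.5 CPM in cKO libraries, against 42.1 and 52.3 CPM in WT libraries, with overlapping groups. Phlda2, a placental growth restrainer, had 0 counts in all 4 libraries.

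Changes below 0 were few, and none passed. In 4 genes both cKO libraries lay below both WT libraries. Zim1, a maternally expressed zinc finger gene of the Peg3 domain, had 2.699 and 3.21 CPM in cKO libraries, against 4.26 and 3.81 CPM in WT libraries (-0.45 ± 0.25). Mest, a hydrolase-like protein, had 21.8 and 15.99 CPM in cKO libraries, against 23.6 and 23.98 CPM in WT libraries. Copg2, the coatomer gene it overlaps, had 52.9 and 52.6 CPM in cKO libraries, against 59.95 and 60.4 CPM in WT libraries. Mest and Copg2 share part of their span. Peg13, a noncoding RNA within Trappc9, had 255 and 264 CPM in cKO libraries, against 286 and 277 CPM in WT libraries. Over these 4 genes the edgeR adjusted p was 0.258 to 0.519. Igf2r, the receptor that clears Igf2, had 38.7 and 27.3 CPM in cKO libraries, against 38.7 and 41.1 CPM in WT libraries. Sgce, epsilon-sarcoglycan, had 23.4 and 18.3 CPM in cKO libraries, against 21.6 and 23.01 CPM in WT libraries. Both genes overlapped between genotypes, with cKO replicate 2 the lowest library in each. Peg3, a zinc finger gene that affects maternal behaviour, had 262 and 213 CPM in cKO libraries, against 176 and 222 CPM in WT libraries. Its neighbour Usp29, a deubiquitinase, had 23.5 and 23.4 CPM in cKO libraries, against 21.3 and 24.3 CPM in WT libraries. Both pairs of groups overlapped. Gnas, the stimulatory G protein alpha subunit locus, had 1253 and 1296 CPM in cKO libraries, against 1119 and 1059 CPM in WT libraries, a non-overlapping difference that did not pass (log2 change 0.23 ± 0.10, adjusted p = 0.223).

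For the rest, the log2 changes lay between 0.01 and 0.48, none past the threshold. Peg10, a retrotransposon-derived gene, had 19.3 and 11.6 CPM in cKO libraries, against 11.1 and 11.1 CPM in WT libraries, so that cKO replicate 1 alone stood apart. Nnat, a proteolipid of developing neurons inside Blcap, had 212 and 288 CPM in cKO libraries, against 239 and 194 CPM in WT libraries. Blcap had 93.7 and 104 CPM in cKO libraries, against 95.1 and 82.5 CPM in WT libraries. The groups overlapped in Nnat and in Blcap. Impact, a regulator of the GCN2 stress kinase, had 200.5 and 198 CPM in cKO libraries, against 172 and 185 CPM in WT libraries. Zrsr1, a splicing factor gene within Commd1, had 64.1 and 65.5 CPM in cKO libraries, against 54.4 and 61.2 CPM in WT libraries. Both were higher in each cKO library without passing. Commd1, a copper and NF-kB regulator, had 5.62 and 6.82 CPM in cKO libraries, against 6.76 and 5.62 CPM in WT libraries. Trappc9, a vesicle tethering factor, had 71.1 and 93.7 CPM in cKO libraries, against 73.2 and 67 CPM in WT libraries. Both overlapped between genotypes. Calcr, the calcitonin receptor, had reads in cKO replicate 1 alone. Nnat with Blcap, Zrsr1 with Commd1, Peg13 with Trappc9, Mest with Copg2, Plagl1 with Hymai and Nap1l5 with Herc3 overlap in the annotation, so their counts may share reads.

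Leaving out 1 library changed the P21 count. Without WT replicate 1, 6 of the genes passed as higher, and without WT replicate 2, 5. Without cKO replicate 1, 12 passed as higher and 2 as lower, and without cKO replicate 2, 12 passed as higher. Dlk1, Magel2, Ddc and Plagl1 passed in all 4 of these fits. Rtl1, Ndn, Snrpn and Nap1l5 lost the call without either WT library, with edgeR adjusted p of 0.0786 (Ndn without WT replicate 1) to 0.358 (Snrpn without WT replicate 2). Asb4 lost it without WT replicate 2 (adjusted p = 0.107). A fit that shared its estimate of spread over all 10 libraries kept Dlk1 (adjusted p = 0.0113) and Plagl1 (adjusted p = 0.0305) of the 9 and added Mkrn3 (adjusted p = 0.0361).

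Marker genes of other regions and cell types moved at the same age. Of 11 striatal markers 3 rose, and their summed level was 245 and 349.6 CPM in cKO libraries, against 165 and 187 CPM in WT libraries. Within the hippocampal list, the dentate granule markers Prox1 (50.2 and 28.5 CPM in cKO libraries, against 139 and 146 CPM in WT libraries) and C1ql2 (5.78 and 5.92 CPM in cKO libraries, against 27.6 and 23.9 CPM in WT libraries) fell, as did Emx2. Wfs1, a marker of CA1 (413 and 575 CPM in cKO libraries, against 222 and 232 CPM in WT libraries), rose, as did Bok. All 6 oligodendrocyte markers fell, with sums of 3712 and 3485 CPM in cKO libraries, against 5836 and 6198 CPM in WT libraries. So did 5 of 6 microglial markers, with sums of 151 and 154 CPM in cKO libraries, against 268 and 244 CPM in WT libraries. Of 6 ependymal markers 3 rose. Of 8 endothelial and mural markers, Cldn5 and Pecam1 rose and Tek fell, with sums of 239 and 221 CPM in cKO libraries, against 202 and 181 CPM in WT libraries. Of 8 thalamic markers Lhx9 rose, with sums of 168 and 121 CPM in cKO libraries, against 125 and 121 CPM in WT libraries. Of 8 meningeal markers Col3a1 fell, with sums of 93.3 and 90.1 CPM in cKO libraries, against 90.1 and 87.9 CPM in WT libraries. None of the choroid plexus, hypothalamic or erythrocyte markers passed, but only 2 of the 14 hypothalamic markers were expressed enough to be tested. Choroid plexus markers summed to 3682 and 1053 CPM in cKO libraries, against 1440.1 and 1205 CPM in WT libraries, high in cKO replicate 1. Markers of the hypothalamus, where several imprinted genes act, were low. The 14 markers summed to 6.703 and 5.64 CPM in cKO libraries, against 4.13 and 3.04 CPM in WT libraries, with Oxt at 0 in all 4 libraries and Hcrt at 0 in 3 of them. Hdc was the highest of the 14 in each library, with 4.0 and 2.96 CPM in cKO libraries, against 1.7 and 1.1 CPM in WT libraries. These hypothalamic sums thus rest largely on Hdc. The part of these marker shifts in the imprinted gene changes was not tested.

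At E16.5 none of the imprinted genes passed the test. Of 36 genes tested, 0 rose and 0 fell by edgeR, when 0.0118% of all 16958 tested genes rose and 0.112% fell. At an unadjusted p below 0.05, 3 were higher and 2 lower, against 9.13% and 11.5% of all tested genes. DESeq2 called 1 higher at an adjusted p below 0.05. The median log2 change was -0.09, against -0.01 over all tested genes. In 3 genes all cKO libraries lay above all WT libraries (13.9% of all tested genes) and in 3 all lay below (15.3%). Spread between replicates was wider than at P21, with a common biological coefficient of variation of 0.25 at E16.5 and 0.146 at P21. Phlda2, Slc22a18, Ascl2, Snurf and Calcr were too low to test, and Snurf was listed at 0 in all 6 libraries.

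None of the Dlk1-Dio3 genes passed at this age. Dlk1 had 10.7, 8.82 and 20.8 CPM in cKO libraries, against 25.6, 27.8 and 18.4 CPM in WT libraries. The groups overlapped only through cKO replicate 3, and the log2 change was -0.83 ± 0.35 (adjusted p = 0.253). Meg3 had 826, 972 and 1547 CPM in cKO libraries, against 1078, 1886 and 1140.2 CPM in WT libraries. Rian had 358, 415 and 557 CPM in cKO libraries, against 460.4, 625 and 488 CPM in WT libraries. In both, WT replicate 2 was the highest library and cKO replicate 1 the lowest. Mirg had 20.4, 21.6 and 26.4 CPM in cKO libraries, against 21.8, 30.1 and 22.2 CPM in WT libraries. Rtl1 had 3.08, 4.904 and 6.39 CPM in cKO libraries, against 6.31, 9.35 and 5.14 CPM in WT libraries. These 4 genes overlapped between genotypes, with log2 changes of -0.53 (Rtl1) to -0.11 (Mirg). Dio3 had 0, 5.54 and 3.998 CPM in cKO libraries, against 6.84, 7.96 and 0.103 CPM in WT libraries, so that 1 library of each genotype lay at or near 0 and the others did not. All 6 genes of the domain had a negative log2 change, with a median of -0.41, and none passed. Over all 16958 tested genes, 8718 changes were negative. Without WT replicate 2 the log2 changes of Meg3 and Mirg were 0.0079 and 0.054. Rtl1 overlaps Meg3 and Rian in the annotation, so their counts may share reads.

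Igf2 and H19 had the most negative log2 changes of the set and were highest in the library with most meningeal marker RNA. Igf2 had 50.9, 58.1 and 148 CPM in cKO libraries, against 1334, 243 and 203 CPM in WT libraries (log2 change -2.79 ± 0.89, adjusted p = 0.191). All cKO libraries lay below all WT libraries, and WT replicate 1 stood far above the other two WT libraries. H19 had 28.9, 37.7 and 72.9 CPM in cKO libraries, against 522, 75.1 and 70.8 CPM in WT libraries, high in the same library (log2 change -2.26 ± 0.90, adjusted p = 0.236). Without WT replicate 1 the log2 change of Igf2 was -1.37 and that of H19 was -0.64. Meninges and choroid plexus are known sites of Igf2 expression in the fetal brain. The summed meningeal markers given above were also highest in WT replicate 1 and lower in each cKO library than in any WT library. Their part in the Igf2 and H19 values was not tested.

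Plagl1 was the gene nearest to a call. It had 137, 125 and 98.1 CPM in cKO libraries, against 88.5, 82.3 and 62.5 CPM in WT libraries, with every cKO library above every WT library (log2 change 0.62 ± 0.17, adjusted p = 0.167). DESeq2 called it (adjusted p = 0.0116), and it was the only one of the 41 genes past the threshold in the authors' deposited table for this age. Ube3a had 108, 110.0 and 106 CPM in cKO libraries, against 94.3, 96.7 and 98.5 CPM in WT libraries. Peg13 had 375, 353 and 355 CPM in cKO libraries, against 268, 323 and 320.0 CPM in WT libraries. Both were higher in all cKO libraries by small steps, without passing (0.16 ± 0.05 for Ube3a and 0.25 ± 0.09 for Peg13). Zim1 had 3.31, 12.9 and 15.6 CPM in cKO libraries, against 17.8, 19.8 and 21.2 CPM in WT libraries. Sgce had 24.5, 26.4 and 26.6 CPM in cKO libraries, against 33.6, 29.1 and 27.6 CPM in WT libraries. Both were lower in all cKO libraries without passing.

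Other genes varied more within a genotype than between them. Magel2 had 8.19, 22.8 and 43.2 CPM in cKO libraries, against 13.7, 33.5 and 9.54 CPM in WT libraries. Asb4 had 1.18, 16.2 and 21.2 CPM in cKO libraries, against 3.16, 8.94 and 2.31 CPM in WT libraries. Peg10 had 33.7, 83.01 and 109 CPM in cKO libraries, against 29.5, 60.2 and 22.5 CPM in WT libraries. For Magel2, Asb4 and Peg10, cKO replicate 3 was the highest of the 6 libraries and WT replicate 2 was the highest WT library. Calcr, too low to test, had 0, 1 and 26 counts in cKO libraries, against 4, 48 and 0 counts in WT libraries, most of them in the same 2 libraries. Hypothalamic markers summed to 4.01, 4.96 and 14.96 CPM in cKO libraries, against 16.6, 34.5 and 6.01 CPM in WT libraries. The sums were high in cKO replicate 3 and in WT replicates 1 and 2, where Nkx2-1 was the highest marker. Nkx2-1 alone had 1.57, 1.42 and 9.11 CPM in cKO libraries, against 10.2, 19.2 and 2.51 CPM in WT libraries. The sums thus rest largely on 1 gene. The part of these markers in the values of the imprinted genes was not tested. Ddc, a marker of monoaminergic cells as well as an imprinted gene, had 0.224, 0.396 and 0.806 CPM in cKO libraries, against 1.47, 1.9 and 0.577 CPM in WT libraries. Its groups overlapped, and the difference did not pass (log2 change -1.44 ± 0.62, adjusted p = 0.251).

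**Figure D3:**
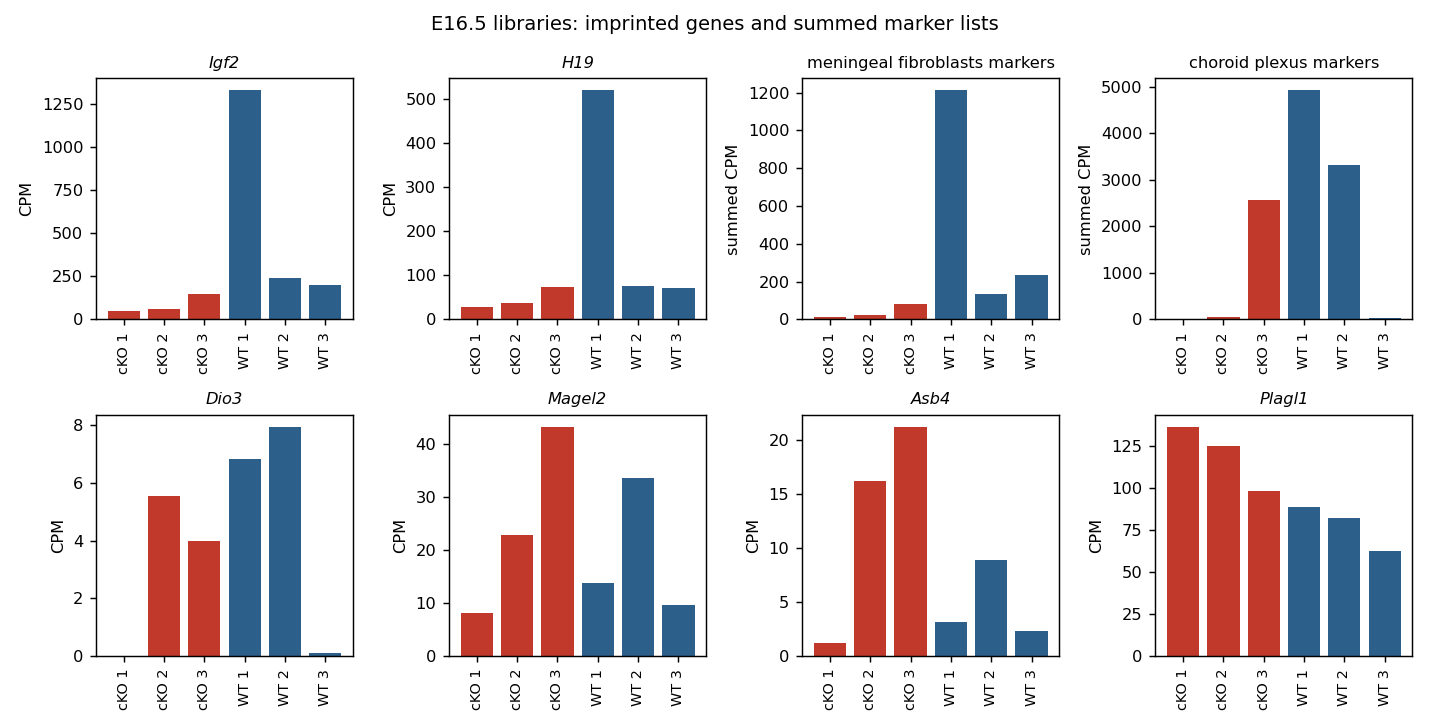
CPM in each E16.5 library for 6 imprinted genes and summed CPM of 2 marker lists, with the 3 cKO libraries (red) left of the 3 WT libraries (blue). Igf2, H19 and the meningeal markers are highest in WT replicate 1, and Plagl1 is higher in each cKO library than in any WT library.

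The most expressed genes of the other domains at E16.5 overlapped between genotypes. Nnat had 1402, 2003 and 3425 CPM in cKO libraries, against 2024, 2838 and 1793 CPM in WT libraries. Ndn had 228, 349 and 514 CPM in cKO libraries, against 323, 426 and 317 CPM in WT libraries. For Nnat and Ndn, cKO replicate 3 was the highest library and cKO replicate 1 the lowest. Gnas had 1198, 1280.4 and 1561 CPM in cKO libraries, against 1557, 1539 and 1375 CPM in WT libraries. Snrpn had 246, 251 and 316 CPM in cKO libraries, against 251, 312 and 276 CPM in WT libraries. The genotypes also overlapped in Gnas and Snrpn. Cdkn1c had 104, 104 and 119 CPM in cKO libraries, against 181, 86.6 and 78.4 CPM in WT libraries. Mest had 117, 163 and 179 CPM in cKO libraries, against 216, 150.3 and 129.6 CPM in WT libraries. For Cdkn1c and Mest, as for Igf2, WT replicate 1 was the highest library. None of these 6 genes differed beyond the replicate spread, with edgeR adjusted p of 0.505 (Gnas) to 0.959 (Ndn and Nnat). Grb10 had 69.4, 89.5 and 103 CPM in cKO libraries, against 132, 77.2 and 52.3 CPM in WT libraries. Igf2r had 44.7, 52.8 and 50.5 CPM in cKO libraries, against 61.4, 49.2 and 48.5 CPM in WT libraries. Both were highest in WT replicate 1 as well. Peg3 had 39.4, 57.1 and 83.9 CPM in cKO libraries, against 78.5, 100.1 and 53.6 CPM in WT libraries. Nap1l5 had 34.7, 40.7 and 22.1 CPM in cKO libraries, against 25.04, 48.7 and 27.1 CPM in WT libraries. In both, WT replicate 2 was the highest library. Zrsr1 had 21.7, 20.3 and 22.8 CPM in cKO libraries, against 24.7, 24.9 and 21.7 CPM in WT libraries. Impact had 23.7, 28.2 and 28.4 CPM in cKO libraries, against 33.3, 31.5 and 27.7 CPM in WT libraries. The groups overlapped in each of these genes. Mkrn3, Usp29, Kcnq1ot1, Copg2, Commd1, Blcap and Trappc9 had log2 changes between -0.15 and 0.09.

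The change of Dlk1 at P21 differed from its change at E16.5. In 1 fit over the 10 libraries, the cKO effect on Dlk1 was 3.90 ± 0.51 log2 units higher at P21 than at E16.5 (adjusted p = 0.0255). It was the only gene of 40 tested that passed, and 0 passed in the other direction, against 0.427% and 0.738% of all 18979 tested genes. At an unadjusted p below 0.05, 8 genes had a larger and 2 a smaller effect at P21, against 9.57% and 10.5% of all tested genes. The Dlk1 call was lost without any 1 of 7 libraries, which were all 4 at P21, cKO replicate 2 and WT replicates 1 and 2 at E16.5. Over all 10 single omissions its difference was 3.67 to 4.37, with edgeR adjusted p of 0.00367 to 0.107. Mkrn3 (difference in log2 0.96 ± 0.24, adjusted p = 0.0892), Ddc (difference in log2 2.89 ± 0.73, adjusted p = 0.0899) and Peg13 (difference in log2 -0.40 ± 0.13, adjusted p = 0.15) were next and did not pass.

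On a scale shared by both ages, Dlk1 stood at 12.9 ± 6.18 CPM in cKO and 22.7 ± 4.56 CPM in WT hippocampus at E16.5 (SD, n = 3 each). At P21 it stood at 46.9 ± 7.47 CPM in cKO and 5.49 ± 0.766 CPM in WT hippocampus (SD, n = 2 each). Between the ages Dlk1 thus rose in cKO hippocampus (P21 over E16.5 1.86 ± 0.34, edgeR adjusted p = 0.00133) and fell in WT hippocampus (-2.05 ± 0.38, adjusted p = 0.00164). The tables of the ages were deposited separately, and age and library preparation cannot be told apart in these comparisons.

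Of the other genes, 12 fell and 9 rose with age in both genotypes, and Dlk1 was the 1 gene that passed in opposite directions. In cKO hippocampus 13 of 40 genes rose and 14 fell between E16.5 and P21, against 31.6% and 33.6% of all tested genes. In WT hippocampus 11 of 40 rose and 15 fell, against 27.8% and 32.6%. These shares are near those of all genes, and the median log2 change in WT was -0.48 for the set and -0.12 for all genes. Of the genes that fell in both genotypes, H19 changed by -5.12 in cKO and -8.33 in WT, Cdkn1c by -3.30 and -3.89, and Nnat by -3.04 and -3.17. Mest, Mkrn3, Asb4, Peg10, Zim1, Plagl1, Commd1, Grb10 and Usp29 also fell in both. Of those that rose in both, Impact changed by 3.04 in cKO and 2.72 in WT, Nap1l5 by 3.02 and 2.55, and Meg3 by 2.04 and 1.38. Ddc, Snrpn, Peg3, Zrsr1, Rian and Snurf, the last listed at 0 in every E16.5 library, also rose in both. Of these 21 genes, 16 kept both calls when any 1 library was left out. Rian lost its WT call without any 1 of the P21 libraries, and without cKO replicate 2 or WT replicates 1 or 3 at E16.5 (edgeR adjusted p up to 0.172). Peg10 lost its WT call without any 1 of the P21 libraries, and without cKO replicate 2 or WT replicates 1 or 2 at E16.5 (adjusted p up to 0.161). Both lost the cKO call without cKO replicate 2 at P21. Asb4 and Grb10 each lost the cKO call in 7 of 10 omissions, which included all 4 P21 libraries and cKO replicates 2 and 3 at E16.5, with WT replicate 1 at E16.5 for Asb4 and WT replicate 2 for Grb10. Zim1 lost it without either cKO library at P21 or cKO replicates 2 or 3 at E16.5. In WT, Asb4 and Zim1 lost the call without either WT library at P21, and Grb10 without WT replicate 1 at P21. Magel2 and Ndn fell in WT hippocampus and missed the threshold in cKO hippocampus (edgeR adjusted p = 0.066 for Magel2 and 0.0568 for Ndn). Without WT replicate 2 at P21 the WT calls were lost too (adjusted p = 0.0519 for Magel2 and 0.0575 for Ndn). The difference between genotypes in these age changes did not pass (adjusted p = 0.332 for Magel2 and 0.539 for Ndn). Rtl1, Slc22a18 and Ascl2 rose in cKO hippocampus (0.87, 3.20 and 2.16, edgeR adjusted p = 0.0403, 0.0333 and 0.0182). Their WT changes were negative and did not pass (-0.49, -1.61 and -0.47, adjusted p = 0.233, 0.272 and 0.574). For these genes too the difference between genotypes did not pass (adjusted p = 0.166, 0.167 and 0.185). Slc22a18 and Ascl2 had few counts. Over all 10 single omissions the age changes in cKO were 0.69 to 1.13 for Rtl1, 2.67 to 4.05 for Slc22a18 and 1.79 to 3.03 for Ascl2. Each of these genes lost its cKO call in some of the omissions.

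**Figure D4:**
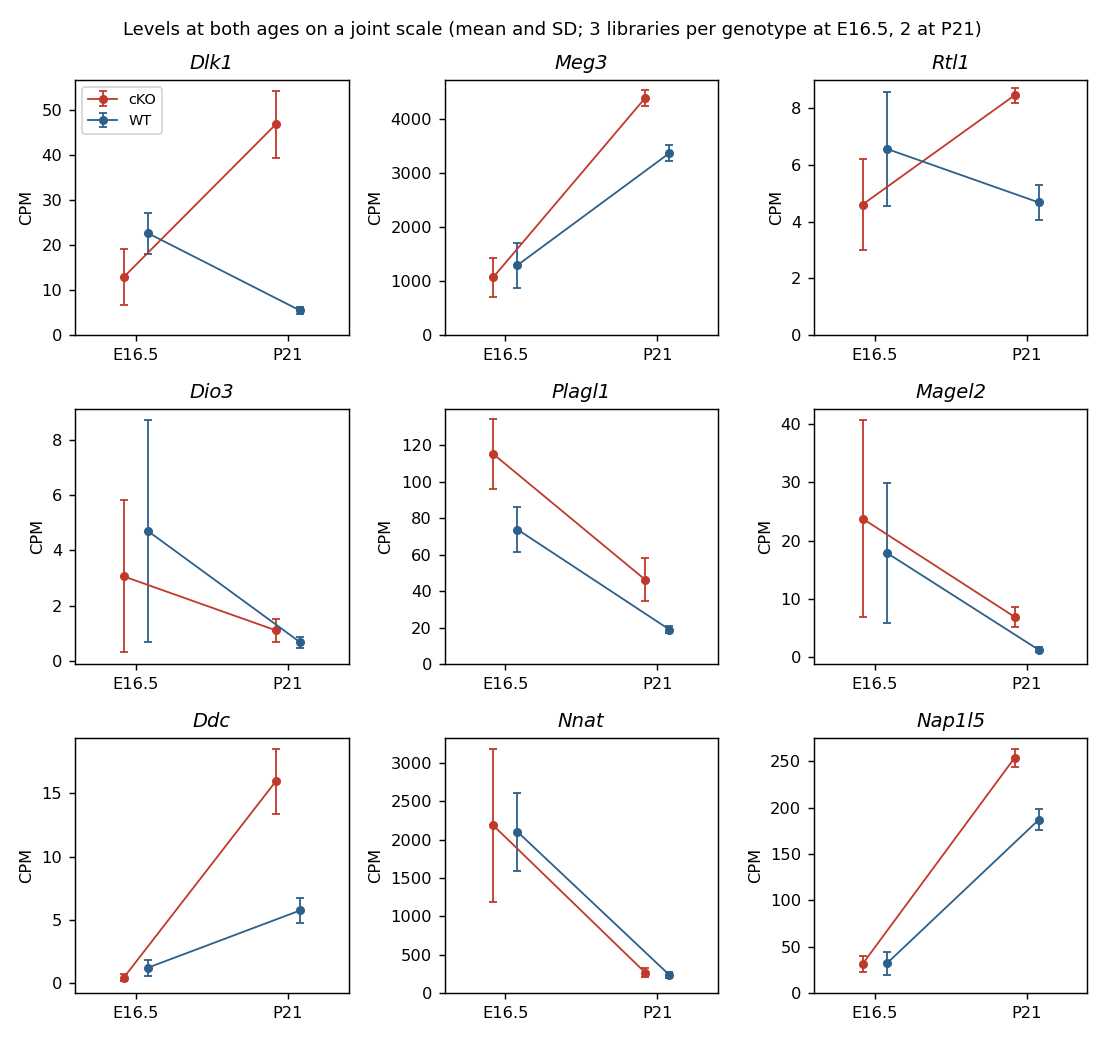
CPM on the joint scale at E16.5 and P21 for 9 imprinted genes, as means with SD (3 libraries per genotype at E16.5 and 2 at P21), cKO in red and WT in blue. Dlk1 and, by smaller steps, Rtl1 run upward between the ages in cKO and downward in WT. Plagl1, Magel2, Nnat and Dio3 run downward and Meg3, Ddc and Nap1l5 upward in both genotypes.

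Other imprinted genes and the factors that keep imprints were read beside the set. Of 43 further imprinted genes 35 were tested at P21 (median log2 change 0.09). Of these, 0 rose and 1 fell, against 2.81% and 3.91% of all tested genes. The 1 that fell was Dhcr7, an enzyme of cholesterol synthesis, with 28.8 and 30.5 CPM in cKO libraries, against 45.3 and 40.9 CPM in WT libraries (log2 change -0.54 ± 0.12, adjusted p = 0.0356). The next were Ago2, an Argonaute protein (log2 change -0.45 ± 0.11, adjusted p = 0.0514), Klf14, a transcription factor at the Mest domain (log2 change 2.81 ± 0.70, adjusted p = 0.0564), and Bcl2l1, an inhibitor of apoptosis (log2 change 0.44 ± 0.12, adjusted p = 0.0705). At E16.5, 36 were tested and 0 passed (median -0.19). By an unadjusted p below 0.05, 1 was higher and 7 lower, against 9.13% and 11.5% of all tested genes. The closest was Herc3, with 52.4, 49.99 and 48.2 CPM in cKO libraries, against 33.5, 37.2 and 41.1 CPM in WT libraries (log2 change 0.43 ± 0.09, adjusted p = 0.138).

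Of 22 factors that set, keep or erase imprints, 19 were tested at each age. At P21, 0 rose and 1 fell, against 2.81% and 3.91% of all tested genes (median -0.10). Tet3, an enzyme that oxidises methylated cytosine, had 58.4 and 58.97 CPM in cKO libraries, against 86.8 and 96.2 CPM in WT libraries (log2 change -0.64 ± 0.11, adjusted p = 0.016). Zfp57, which protects methylated imprinting control regions, had 8.97 and 6.97 CPM in cKO libraries, against 11.97 and 12.5 CPM in WT libraries (log2 change -0.62 ± 0.18, adjusted p = 0.0864). Dnmt3a, a de novo DNA methyltransferase, had 70.3 and 54.4 CPM in cKO libraries, against 82.4 and 90.4 CPM in WT libraries (log2 change -0.47 ± 0.14, adjusted p = 0.087), and Dnmt1, the maintenance methyltransferase, had 40.5 and 36.5 CPM in cKO libraries, against 48.8 and 48.2 CPM in WT libraries (log2 change -0.33 ± 0.11, adjusted p = 0.11). In all 4 of these genes, named for their low adjusted p, both cKO libraries were below both WT libraries (28.0% of all tested genes). Tet3 alone passed. Of the 19, 2 were higher and 4 lower at an unadjusted p below 0.05, against 11.7% and 13.2% of all tested genes. At E16.5, 0 passed (median 0.14). By an unadjusted p below 0.05, 6 were higher and 1 lower, against 9.13% and 11.5% of all tested genes. The closest was Ezh2, the enzyme that writes H3K27me3, with 117, 127 and 104 CPM in cKO libraries, against 77.1, 79.6 and 87.5 CPM in WT libraries (log2 change 0.51 ± 0.09, adjusted p = 0.127).

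In the ChIP-seq lists, imprinted genes with an H3K27me3 peak were more numerous in the cKO list, as were genes of all kinds. The cKO list held 15659 H3K27me3 peaks over 13035821 bp and the WT list 4124 peaks over 2860228 bp. A peak lay on the gene or within 1 kb of it in 19 of the 41 genes in cKO and 8 in WT, against 18.1% and 3.72% of 15816 genes tested at P21 with coordinates. All 8 were among the 19 (a peak in both lists, 3.69% of all genes), and they were Dlk1, Rian, Dio3, Igf2, Cdkn1c, Phlda2, Asb4 and Grb10. The 11 with a peak in cKO alone (14.4% of all genes) were Meg3, Rtl1, H19, Slc22a18, Ascl2, Usp29, Magel2, Sgce, Calcr, Ddc and Gnas. Neighbouring genes can be counted through the same peak. The only Rtl1 peak also lay on Rian, and the highest Slc22a18 peak was that of Phlda2. With 1 library per mark and genotype there is no test, and a difference between lists may be that of the libraries. For peaks, here and below, all genes means these 15816 genes, which were expressed enough to be tested at P21. Phlda2 and Calcr were too low to test at that age, so they count among the 41 but lie outside that baseline.

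Dlk1 was covered by H3K27me3 in both genotypes and by neither of the other marks. Of the gene with 1 kb at either end, 8 H3K27me3 peaks covered 7725 bp in cKO, against 1018 bp under 1 peak in WT. A further WT peak, at chr12:109449490-109450059, ended 2.76 kb before the Dlk1 start, outside these limits and inside a cKO peak that reached them. The highest fold enrichment over input, as the authors' peak caller gave it, was 8.95 in cKO and 4.96 in WT. The highest cKO peak, at chr12:109452632-109455138 (GRCm38), covered 241 bases of the Dlk1 promoter printed above, and the WT peak, at chr12:109453115-109454132, began beyond it. At the nearest, an H3K4me3 peak stood 2.28 kb before the Dlk1 start in cKO. RNA of Dlk1 was thus higher in cKO hippocampus at P21 while its H3K27me3 peaks, from 1 library each at 3 weeks, covered more bases in cKO. The whole H3K27me3 list also covered more in cKO, with 13035821 bp against 2860228 bp in WT.

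Over the domain and 100 kb at either side (chr12:109352485-110381097), 38 H3K27me3 peaks covered 32711 bp in cKO and 7 covered 6304 bp in WT. The 7 WT peaks lay just before Dlk1, on Dlk1, in Rian, between Rian and Dio3 and, with 3 peaks, at Dio3, and 6 of them overlapped a cKO peak. The Dio3 promoter was covered in full in both genotypes (fold enrichment 13.5 in cKO and 6.48 in WT). H3K4me3 had 8 peaks over 4010 bp in cKO and 2 over 1056 bp in WT. At the Meg3 start it had 3 peaks in cKO (highest fold enrichment 8.57) and 1 in WT (9.56). The first of the cKO peaks covered 122 bases of the printed promoter. H3K27ac had 4 peaks in cKO and 1 in WT, and the WT peak, on Meg3, had no cKO counterpart.

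**Figure D5:**
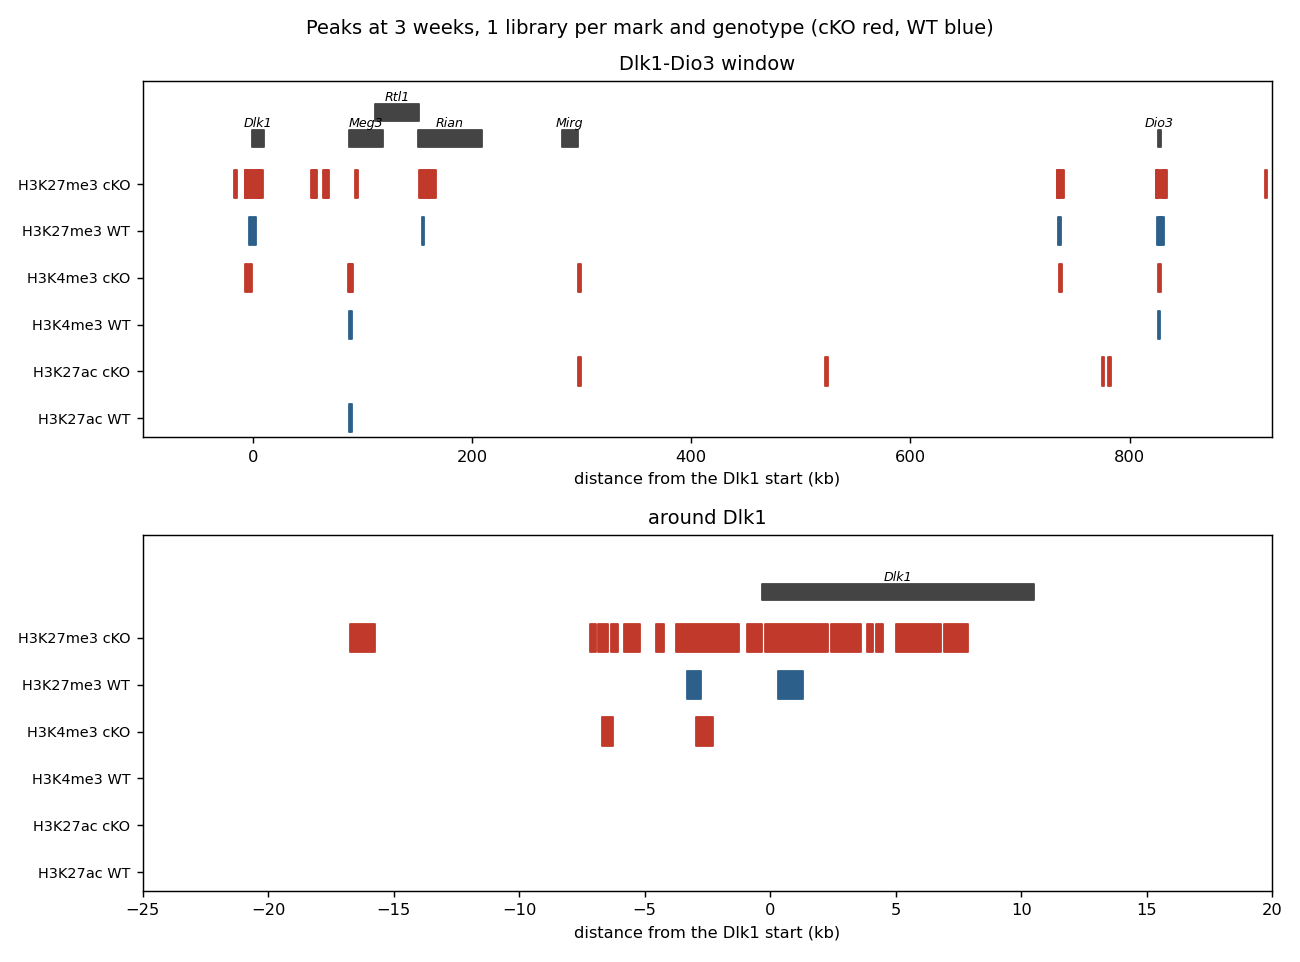
Peaks called at 3 weeks in the Dlk1-Dio3 window (top) and around Dlk1 (bottom), by distance from the Dlk1 start in kb, with genes in grey and, for each mark, the cKO row (red) above the WT row (blue). Each row is 1 library, and narrow peaks are drawn at a minimum width. H3K27me3 covers more of the Dlk1 region in cKO than in WT, as it does over the whole lists.

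Elsewhere the widest H3K27me3 peak on these genes was that of Igf2, with 12509 bp in 1 peak in cKO (fold enrichment 19.2) and 5107 bp in 3 peaks in WT (7.09). Within 1 kb, Grb10 had 6026 bp under peaks in cKO and 1871 bp in WT, and Phlda2 had 3572 bp in cKO and 2406 bp in WT. Of the 9 genes that rose at P21, Dlk1 and Asb4 carried H3K27me3 in both lists, Rtl1, Magel2 and Ddc in cKO alone, and Ndn, Snrpn, Plagl1 and Nap1l5 in neither. The genes that rose therefore included some with this mark and some without it. On the printed promoters, Magel2 had an H3K27me3 peak in cKO over 202 bases, Ndn an H3K4me3 peak in cKO over 147 bases, and Plagl1 an H3K4me3 peak in both genotypes, over 300 bases in cKO and 154 in WT.

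H3K4me3 peaks lay at 35 of the 41 genes in cKO and 32 in WT, against 88.2% and 86.5% of all genes. Mirg, Igf2 and Magel2 had one in cKO alone (2.1% of all genes), and Dlk1, Rian, Rtl1, H19, Slc22a18 and Asb4 had none. The Mirg peak lay beyond the end of the gene, within 1 kb of it. H3K27ac peaks lay at 19 genes in cKO and 11 in WT, against 72.0% and 51.0% of all genes. The 9 with H3K27ac in cKO alone (22.0% of all genes) were Mirg, Ndn, Snrpn, Snurf, Peg10, Sgce, Copg2, Nap1l5 and Peg13, of which Ndn, Snrpn and Nap1l5 rose in RNA at P21. Snrpn and Snurf were counted through the same 3 peaks, and Peg10 and Sgce through the same peak. The H3K27ac peak of Mirg, too, lay beyond the end of the gene. Meg3 was the 1 gene with H3K27ac in WT alone (0.986% of all genes). The cKO H3K27ac list was also the longer, with 24065 peaks against 13006 in WT.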

How the data were processed

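RNA was measured by polyA RNA-seq in 10 libraries and 3 histone marks by ChIP-seq in 1 library per genotype. Per the submitters' processing notes, the authors made estimated counts per gene with Salmon 1.0.0 on GRCm38 and compared them with DESeq2 1.26.0. How transcripts were summed per gene, and whether strand was used, are not given in the sources used here. The authors' deposited comparison tables hold log2 fold changes, p-values, adjusted p-values and a mean-level score (baseMean), and symbols were taken from them. Reads were aligned with Bowtie2 2.3.5.1 per the notes, and peaks were called per library against the genotype's input with MACS 2.2.7.1 at a q limit of 0.01 per the file headers (the notes name MACS2 2.2.5). Peaks carry a pileup signal, a fold enrichment ratio over input, and −log10 p-values and q-values, per the file headers. These values are the authors' and serve to describe peaks within a list. Because a wide H3K27me3 region may be called as several narrow peaks, covered length is given too.

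Estimated counts were rounded. Each age was fitted alone with edgeR 4.0.16 (R 4.3.3) on genes kept by filterByExpr, scaled by TMM. The test was edgeR's quasi-likelihood F test with robust weights, adjusted by Benjamini-Hochberg over all genes tested, with a threshold of 0.05. Unless another tool is named, adjusted p-values are edgeR's, and SEs are approximate, being the log2 change over the root of F. The difference between ages and the comparisons of ages used 1 fit of the 10 libraries, whose CPM differ slightly in scale from those of each age. DESeq2 1.42.0, other scalings, no filter, a fit without robust weights, a fit with the replicate number as block, a fit over all libraries and single omissions were the alternatives. Fits were tested on simulated counts. Gene positions and promoters are RefSeq's (GRCm38.p6), matched by symbol for all 41 genes. A peak belonged to a gene when it overlapped the gene or 1 kb at either end by at least 1 bp.

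The genes, lists and tests were chosen with earlier results of these data known. Values in every library were to be given for the Dlk1-Dio3 genes, for genes past a threshold and for the highest gene of each other domain, and further genes are given to account for the set. From the other lists, up to 4 genes with the lowest adjusted p, or the closest 1, were named.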

Additional observations from a re-analysis of the deposited data

Results flagged for a closer look

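Dlk1 was flagged because its response to the knockout differed between the ages. The cKO effect was 3.90 ± 0.51 log2 units higher at P21 than at E16.5 in the fit of all 10 libraries (edgeR adjusted p = 0.0255). At P21 Dlk1 was higher in both cKO libraries than in both WT libraries, and at E16.5 it was lower in 2 of 3 cKO libraries than in any WT library. Age and library preparation cannot be told apart here.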

How the results depend on the processing

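At P21 the number of imprinted genes that rose was 9, and 8 by DESeq2, 9 with RLE scaling, 10 with upper-quartile scaling, 10 with no filter, 6 without robust weights, 5 with the replicate block and 3 with all 10 libraries in the fit. Over single omissions it was 5 to 12, and the number that fell was 0 to 2. At E16.5 DESeq2 called 1 gene higher. For the difference between ages the count was 2 by DESeq2, 0 with the block and 0 to 2 over omissions. The replicate numbers gave no sign of pairing. Deviations of same-numbered libraries correlated at 0.0191 at P21 and -0.225, -0.0211 and -0.49 at E16.5. With 2 libraries per genotype at P21, deviations from the mean mirror each other, so the P21 value cannot show whether libraries were paired. At E16.5 no library correlated best with its own number. Among the other imprinted genes, the P21 count higher was 1 by DESeq2 and 4 with no filter (omissions 0 to 4), and the count lower was 3 by DESeq2, 4 with no filter, 0 without robust weights, 0 with the block and 2 over all libraries (omissions 0 to 3). At E16.5 it was 1 higher by DESeq2 and 1 over all libraries, with 3 lower by DESeq2. Among imprint factors, 2 fell at P21 by DESeq2 and 3 with no filter (omissions 0 to 4, and 0 to 2 higher), and at E16.5 2 rose by DESeq2 and 1 with no filter. H3K27ac in WT lay at 7 genes at a −log10 q of at least 5. Small log2 changes turned sign. With upper-quartile scaling at P21 Rian was 0.0071 and Mirg 0.036. Commd1 at P21 was -0.0027 with no filter and -0.011 over all libraries. With the block at E16.5 Cdkn1c was 0.028, Ndn -0.036 and Nnat -0.042. Over single omissions at P21 the ranges crossed 0 for Rian -0.13 to 0.041, Mirg -0.11 to 0.072, Usp29 -0.054 to 0.13, Ube3a -0.11 to 0.18, Sgce -0.29 to 0.063, Commd1 -0.14 to 0.15 and Nnat -0.034 to 0.41. At E16.5 they did so for Meg3 -0.60 to 0.0079, Mirg -0.23 to 0.054, Cdkn1c -0.28 to 0.41, Kcnq1ot1 -0.052 to 0.18, Igf2r -0.15 to 0.024, Usp29 -0.046 to 0.17, Ndn -0.30 to 0.30, Magel2 -0.28 to 1.09, Mkrn3 -0.043 to 0.10, Snrpn -0.17 to 0.044, Mest -0.25 to 0.14, Grb10 -0.25 to 0.44, Nnat -0.38 to 0.31, Blcap -0.12 to 0.21 and Nap1l5 -0.23 to 0.32, and for the difference between ages for Mirg -0.10 to 0.18. The cause was not tested. None of these small changes had passed the test. Depth limits Phlda2, Calcr, Slc22a18, Ascl2, Dio3 and Asb4, which have few counts at P21, and 2 libraries per genotype limit the precision at P21.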
